A study of Mus musculus with 6 samples.

Results

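The genes of the ventricular sarcomere and its Z-disc were examined in hearts of mice with heart failure with preserved ejection fraction (HFpEF) and of control mice (Chow). The paper describes the tissue as left ventricular myocardium. The set holds 34 genes, out of 54532 in the expression table, and was chosen by gene symbol as components of the thick filament (4 genes), the thin filament (6 genes), titin and the M-band (3 genes), the Z-disc (16 genes) and the chaperone and protein turnover machinery of the sarcomere (5 genes). Bulk RNA sequencing was performed on 6 libraries, 1 per mouse, with 3 mice in each group. All mice were male C57BL/6 mice aged 6 to 8 weeks at the start. HFpEF mice ate a diet in which fat supplied 60% of the kcal and drank water with 0.5 g/L of L-NAME, which blocks the enzymes that make nitric oxide, for 12 weeks. Chow mice ate standard chow and drank regular water for the same time. Diet and L-NAME were given only together, so their separate contributions cannot be told apart, and no females were included.

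The sarcomere is the contractile unit of striated muscle, in which thick filaments of myosin pull on thin filaments of actin. Troponin and tropomyosin on the thin filament gate this interaction by calcium, titin spans from the Z-disc to the M-band as a molecular spring, and the Z-disc anchors thin filaments and carries many proteins that sense load. Ventricular and atrial muscle use different myosin light chains, so that Myl2 and Myl3 mark the ventricle and Myl7 and Myl4 the atrium.

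Levels are the deposited FPKM, fragments counted per kilobase of exon length and scaled per library. The scaling was not by read number alone. It implied 19316914 reads for HFpEF replicate 3, where 15196299 were recovered. For Chow replicate 3 it implied 12093541 reads, where 13257175 were recovered. Reads recovered from these values totalled 13076760 to 15574926 per Chow library and 13461739 to 16027101 per HFpEF library, and every member had at least 133 reads in every library. Several libraries stood apart in markers of other cells. The 7 atrial genes summed to 29.6 and 33.8 FPKM in Chow replicates 1 and 2, to 577 in Chow replicate 3, to 2686 and 4054 in HFpEF replicates 1 and 2, and to 72.6 in HFpEF replicate 3. Myl7, the atrial regulatory light chain, was at 3.81, 0.289 and 237 FPKM in Chow and at 975, 2072.6 and 8.60 in HFpEF. Tissue that the paper describes as left ventricle, and the sample labels only as heart, therefore carried atrial transcripts in 3 of 6 libraries. HFpEF replicate 3 stood apart in another way. Its 8 fibroblast genes summed to 5522 FPKM, against 220 to 258 in Chow and 425 and 494 in the other HFpEF libraries, with Col1a1, a chain of type I collagen, at 2252.3 FPKM. Its 6 macrophage genes summed to 746 FPKM, against 172 to 283 in the other libraries, and mitochondrially encoded genes took 7.17% of its reads, against 20.1% to 26.0% elsewhere. The 7 adipocyte genes summed to 36.6 to 89.3 FPKM in HFpEF and to at most 0.0481 in Chow. The 7 endothelial genes were at 225 to 235 FPKM in HFpEF and at 288 to 316 in Chow. The 12 skeletal muscle markers, a list that includes Ckm of the heart, summed to 419 to 504 FPKM in Chow and 128 to 334 in HFpEF. Of the 12, 2 were at 0 in all 6 libraries. Myl1 of this list was at 9.07, 11.2 and 14.5 FPKM in Chow and at 31.9, 39.8 and 6.22 FPKM in HFpEF. The 6 smooth muscle genes ranged from 238 to 284 FPKM in Chow and from 183 to 646 in HFpEF, the 7 cartilage, bone and valve genes from 3.08 to 4.45 and from 7.92 to 38.0, and the 5 red blood cell genes from 280 to 1591 and from 478 to 1813. The part that these differences play in the results was not tested.

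**Figure D1:**
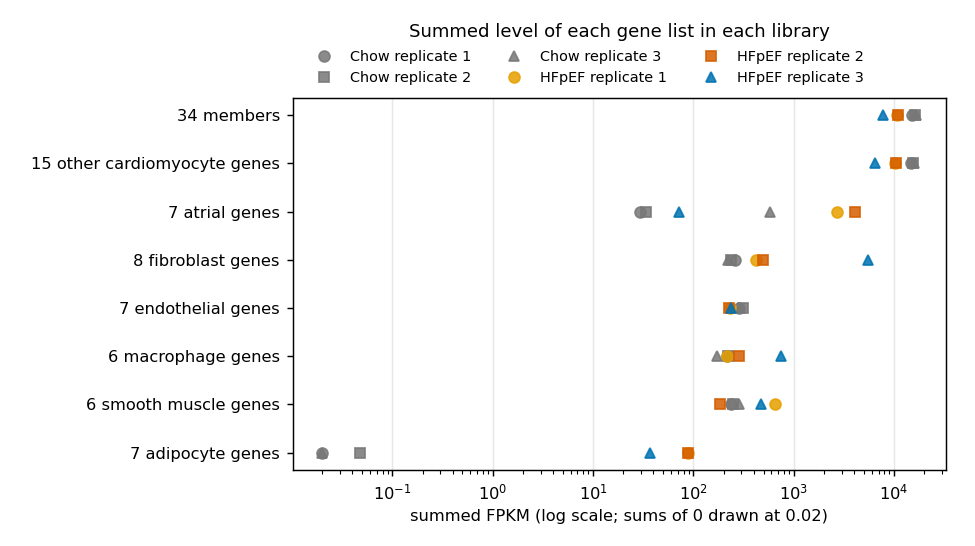
Summed FPKM of each gene list (rows) in each library, on a logarithmic axis. Gray symbols are the 3 Chow libraries and coloured symbols the 3 HFpEF libraries. The summed level of the 34 members was lower in all 3 HFpEF libraries, atrial genes were high in HFpEF replicates 1 and 2, at 2686 and 4054 FPKM, and fibroblast genes were high in HFpEF replicate 3, at 5522 FPKM.

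The fitted level of every one of the 34 sarcomere and Z-disc genes was lower in HFpEF than in Chow hearts, where 51.2% of all 14227 genes tested lay below 0. Summed FPKM of the 34 genes was 14934.9, 16048.2 and 16559.8 in Chow and 10639.8, 10981.4 and 7732.0 in HFpEF. As a share of reads from nuclear genes, this was 6.22% ± 0.24 in Chow and 4.45% ± 0.82 in HFpEF (SD, n = 3). The shares did not overlap, at 5.98% to 6.45% in Chow and 3.51% to 4.94% in HFpEF. In bulk tissue, fewer cardiomyocytes and less of these RNAs per cardiomyocyte cannot be told apart. HFpEF and Chow were compared with limma on log2(FPKM + 0.1), fitted over all genes tested, with Benjamini-Hochberg adjustment. All 34 genes passed the filter on low values. Their median log2 fold change was −0.53, beside −0.01 over all genes. At an adjusted p under 0.05, 0 of 34 were called in either direction, where 0.00703% of all genes were called lower and 0.0914% higher, and the adjusted p of the members ran from 0.0989 to 0.693. At an unadjusted p under 0.05, 19 of 34 were lower, against 13.1% of all genes, and 0 were higher, against 10.2% of all genes. For 26 of 34, every HFpEF library lay below every Chow library, which held for 19.7% of all genes. For a single gene, the exact two-sided permutation test of 3 mice against 3 cannot go below p = 0.1, and this was the value for those 26. HFpEF replicate 3 had the lowest level of the 6 libraries in 33 of 34 genes.

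**Figure D2:**
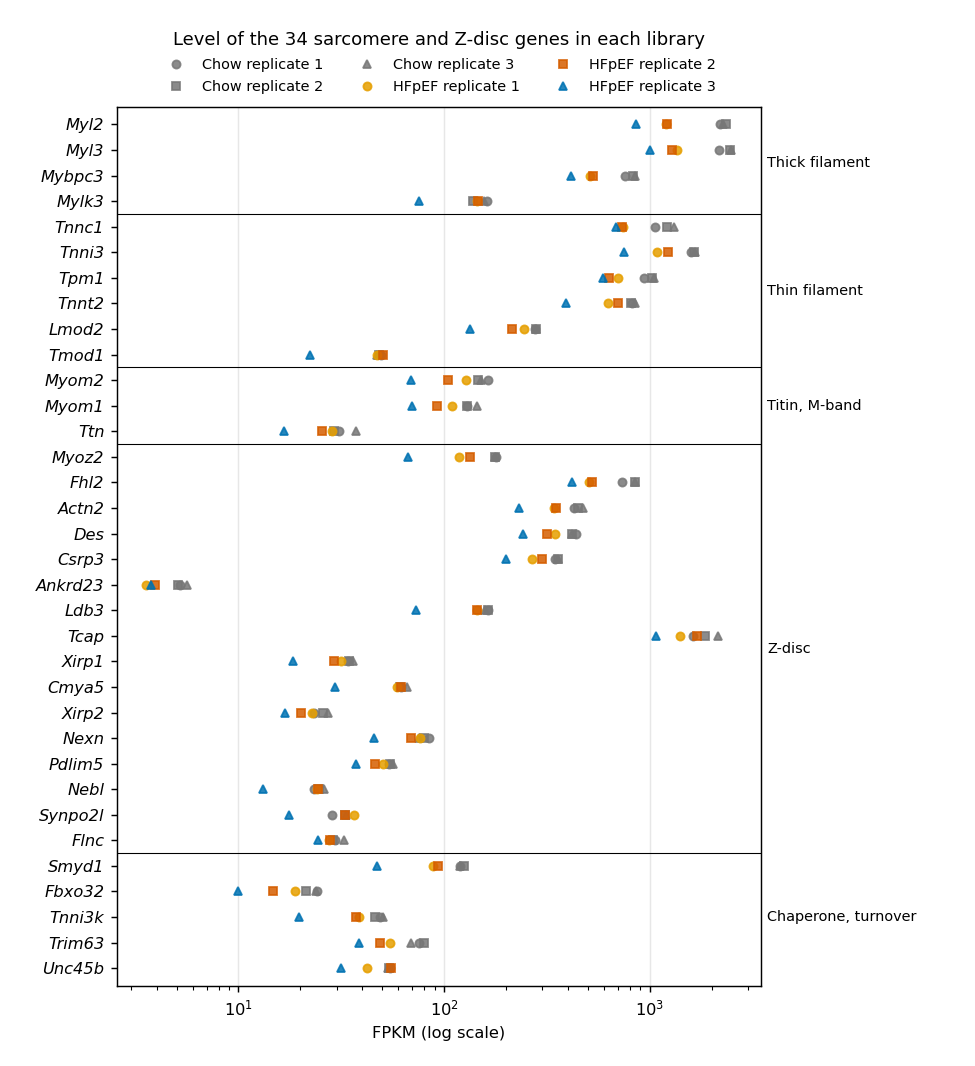
FPKM of each of the 34 genes in each of the 6 libraries, on a logarithmic axis, grouped by role and ordered within a role by fold change. Levels spanned from 3.56 FPKM for Ankrd23 to 2493.1 for Myl3, and HFpEF replicate 3 (blue triangles) lay lowest for every gene except Ankrd23.

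Without HFpEF replicate 3, the spread between HFpEF libraries was smaller and the differences were smaller too. The median log2 fold change of the 34 genes was then −0.34, and 32 of 34 were below 0. In this comparison of 2 HFpEF mice with 3 Chow mice, 16 of 34 genes fell at an adjusted p under 0.05, against 5.50% of all genes, and 0 rose, against 2.85% of all genes. The 16 were Myl2, Myl3, Mybpc3, Tnnc1, Tpm1, Tnni3, Tnnt2, Myoz2, Fhl2, Actn2, Des, Csrp3, Ankrd23, Smyd1, Trim63 and Tnni3k. Both HFpEF libraries left in this comparison are those with atrial transcripts.

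Promoter sequences of 4 members are shown, Mybpc3 and Fhl2 from among the genes with the larger differences and Flnc and Synpo2l as the genes with the smallest. Each is the 250 bases before the start of transcription in RefSeq on GRCm38.p6, written 5′ to 3′ on the gene's strand. Capitals mark matches, on either strand, to a MEF2 site, a CArG box (the element bound by serum response factor), CATTCC (bound by TEAD factors), AGATAA (bound by GATA factors), CAGCTG (an E-box) or TATAAA. The 4 windows are at chr2:91117894-91118143 on the plus strand (Mybpc3), chr1:43196762-43197011 on the minus strand (Fhl2), chr6:29433006-29433255 on the plus strand (Flnc) and chr14:20668355-20668604 on the minus strand (Synpo2l).
Mybpc3: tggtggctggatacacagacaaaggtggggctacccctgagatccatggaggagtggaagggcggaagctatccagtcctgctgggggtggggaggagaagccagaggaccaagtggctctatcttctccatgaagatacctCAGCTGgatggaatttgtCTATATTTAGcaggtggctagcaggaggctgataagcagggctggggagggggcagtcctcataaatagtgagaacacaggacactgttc
Fhl2: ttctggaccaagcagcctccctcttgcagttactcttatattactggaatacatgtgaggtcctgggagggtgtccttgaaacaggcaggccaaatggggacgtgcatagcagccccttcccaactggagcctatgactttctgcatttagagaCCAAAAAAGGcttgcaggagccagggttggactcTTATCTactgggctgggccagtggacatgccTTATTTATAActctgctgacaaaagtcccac
Flnc: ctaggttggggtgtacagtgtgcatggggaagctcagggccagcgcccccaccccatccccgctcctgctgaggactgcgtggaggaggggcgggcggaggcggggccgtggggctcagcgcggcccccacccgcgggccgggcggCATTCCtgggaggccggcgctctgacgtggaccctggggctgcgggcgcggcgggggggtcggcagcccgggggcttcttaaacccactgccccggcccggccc
Synpo2l: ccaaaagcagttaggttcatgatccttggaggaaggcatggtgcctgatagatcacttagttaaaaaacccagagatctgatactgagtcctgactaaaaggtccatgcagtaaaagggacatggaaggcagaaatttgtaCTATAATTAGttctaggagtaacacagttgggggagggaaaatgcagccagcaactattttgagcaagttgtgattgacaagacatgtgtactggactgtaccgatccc

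Mybpc3 held a MEF2 site from −90 to −81 and CAGCTG from −108 to −103, counted from the base before the start as −1. Fhl2 held a CArG box from −96 to −87, AGATAA on the opposite strand from −62 to −57, and a MEF2 site from −31 to −22 that overlaps TATAAA on the opposite strand from −28 to −23. Flnc held CATTCC from −104 to −99, and Synpo2l a MEF2 site from −109 to −100. A MEF2 site was thus in promoters of genes with larger differences and in that of Synpo2l. Promoters of 28 members could be used. A MEF2 site was in 6 of 28 (21.4%), against 2.92% of all 32851 promoters of this length, and a CArG box in 5 of 28 (17.9%), against 1.47%. CATTCC was in 10 of 28 (35.7%, against 12.6%), CAGCTG in 5 of 28 (17.9%, against 13.0%), AGATAA in 4 of 28 (14.3%, against 9.99%) and TATAAA in 3 of 28 (10.7%, against 12.4%). MEF2 sites were found in Mybpc3, Ttn, Myoz2, Fhl2, Xirp2 and Synpo2l, and CArG boxes in Myl3, Myom1, Ldb3, Nebl and Fhl2. The windows of Myl3, Myom1 and Nebl lie wholly within the bounds of their genes, near a later annotated start. For 18 of the 28 windows, the next 50 bases open a GENCODE transcript. Use of these starts in the heart was not tested. A match of letters does not show that a factor binds.

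Among thick filament genes, both ventricular light chains had lower levels in every HFpEF heart, at about the same size, and myosin-binding protein C was also lower. The median log2 fold change of the 4 genes was −0.87, the most negative of the 5 role groups, and it was −0.75 without HFpEF replicate 3. Myl2, the ventricular regulatory light chain, lies on chromosome 5 from 122100951 to 122113472. It was at 2196.8, 2360.5 and 2275.1 FPKM in Chow and at 1202.9, 1215.6 and 854 FPKM in HFpEF. HFpEF hearts had 0.479 times the Chow mean, with no overlap between the groups. This was the largest fitted difference of the 34, with a log2 fold change of −1.08 (standard error 0.21, adjusted p = 0.0989). Myl3, the essential light chain of the ventricle, lies on chromosome 9 from 110741861 to 110769798. Its levels were 2183.7, 2460.0 and 2493.1 FPKM in Chow and 1361.2, 1279.6 and 1000 FPKM in HFpEF. The groups again lay apart, with a log2 fold change of −0.98 (standard error 0.20, adjusted p = 0.102). Without HFpEF replicate 3, Myl2 fell by 0.91 (adjusted p = 0.00683) and Myl3 by 0.85 (adjusted p = 0.0126) on the log2 scale. Mybpc3, the myosin-binding protein that tunes the speed of cross-bridge cycling, lies on chromosome 2 from 91118144 to 91136516, just downstream of the promoter shown. It was at 759, 833 and 847 FPKM in Chow and at 511, 530 and 416 FPKM in HFpEF. All HFpEF hearts were below all Chow hearts, with a log2 fold change of −0.75 (standard error 0.17, adjusted p = 0.108). Mylk3, the cardiac kinase that phosphorylates Myl2, differed from these. Its levels of 161, 138 and 157 FPKM in Chow overlapped with 145, 147 and 75.1 FPKM in HFpEF. Only HFpEF replicate 3 was below the Chow range, and the log2 fold change of −0.38 became −0.06 without it.

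The light chains were also set beside their atrial counterparts, since HFpEF replicates 1 and 2 carried atrial transcripts. Myl2 and Myl7 together gave 2200.6, 2360.8 and 2512.2 FPKM in Chow and 2178.3, 3288.1 and 862 FPKM in HFpEF. The sum was thus just below the lowest Chow library in HFpEF replicate 1, above the Chow range in HFpEF replicate 2, and below it in HFpEF replicate 3, which had little Myl7. Myl3 and Myl4 together gave 2184.1, 2460.3 and 2543.1 FPKM in Chow and 1574.6, 1658.0 and 1002.1 FPKM in HFpEF. This sum stayed below Chow in all 3 HFpEF libraries. Both sums depend on the exon lengths by which FPKM divides, which differ widely. These were 1950 bases for Myl2, 590 for Myl7, 2044 for Myl3 and 4637 for Myl4. The contrast between the sums may therefore depend on these lengths, which was not tested. Myl4, the atrial essential light chain, was chosen for this after its values were seen. Chow replicate 3, at 237 FPKM of Myl7, had a Myl2 level between those of the other Chow libraries. Its Myl7 was far below the 975 and 2072.6 FPKM of HFpEF replicates 1 and 2. The part of atrial tissue in the Myl2 levels was not tested.

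**Figure D3:**
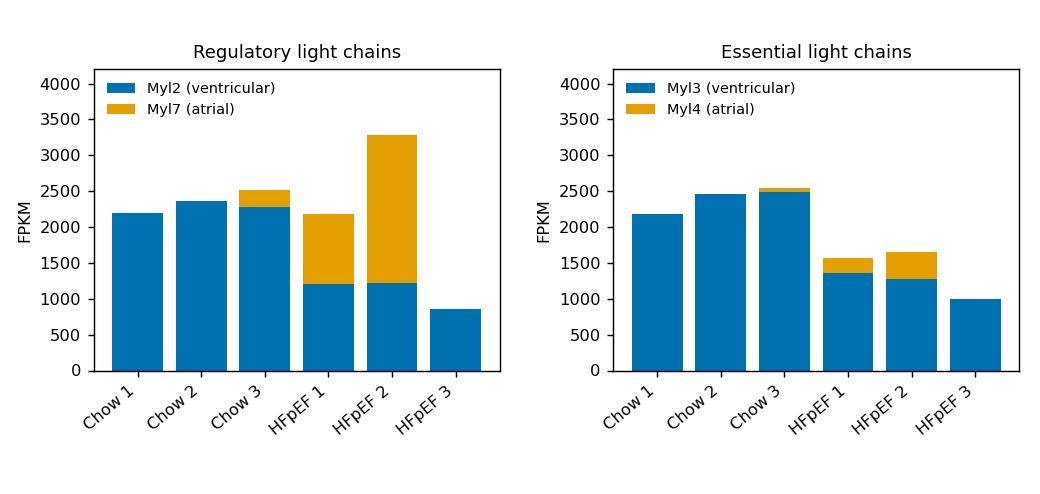
Stacked FPKM of the ventricular (blue) and atrial (orange) regulatory light chains (left) and essential light chains (right) in each library, on linear axes from 0. The ventricular chains are lower in each HFpEF library, Myl7 is high in HFpEF replicates 1 and 2, at 975 and 2072.6 FPKM, and HFpEF replicate 3 has the lowest sum in both panels.

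On the thin filament, all 3 troponin subunits and tropomyosin were lower in every HFpEF heart, while tropomodulin overlapped between groups. The median log2 fold change of the 6 genes was −0.61 (−0.41 without HFpEF replicate 3). Of the 6, 3 were lower at an unadjusted p under 0.05, against 13.1% of all genes. In 5 of 6, every HFpEF library lay below every Chow library, against 19.7% of all genes. Tnni3, the inhibitory subunit of cardiac troponin on chromosome 7 from 4518305 to 4524229, was the most abundant of them. It was at 1588.5, 1638.9 and 1668.1 FPKM in Chow and at 1086.9, 1223.9 and 752 FPKM in HFpEF, with a log2 fold change of −0.71 (standard error 0.23, adjusted p = 0.155). The spread was 40.3 FPKM (SD) in Chow and 243 FPKM in HFpEF. Tnnc1, the calcium-binding subunit, was at 1062.4, 1213.4 and 1307.5 FPKM in Chow and at 738, 731 and 686 FPKM in HFpEF. Here the 3 HFpEF libraries lay close together, and the log2 fold change of −0.73 (standard error 0.16, adjusted p = 0.110) was nearly the same without HFpEF replicate 3, at −0.70. Tpm1, the main cardiac tropomyosin, showed a like pattern, at 939, 1025.7 and 1053.2 FPKM in Chow and at 705, 637 and 591 FPKM in HFpEF. The fit gave a log2 fold change of −0.65 (standard error 0.16, adjusted p = 0.119), and −0.59 without HFpEF replicate 3. Tnnt2, the subunit that ties troponin to tropomyosin, was at 812 to 850 FPKM in Chow and at 390 to 700 FPKM in HFpEF, with a log2 fold change of −0.58. Lmod2, a leiomodin that helps to set thin filament length, was at 278 to 281 FPKM in Chow and at 134 to 245 FPKM in HFpEF, with a log2 fold change of −0.55. Tmod1, which caps the pointed end of the filament, was at 47.4 to 49.6 FPKM in Chow and at 47.1, 50.3 and 22.2 FPKM in HFpEF. Its log2 fold change of −0.37 rested on HFpEF replicate 3 and was 0.0039 without it.

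Titin and both M-band genes were lower in each HFpEF heart, with a median log2 fold change of −0.59 (−0.41 without HFpEF replicate 3). Myom2, a myomesin that crosslinks thick filaments at the M-band and was the most abundant of the 3, lies on chromosome 8 from 15057653 to 15133541. It was at 163, 146 and 151 FPKM in Chow and at 128, 104 and 69.1 FPKM in HFpEF, with a log2 fold change of −0.66 (standard error 0.23, adjusted p = 0.174). Myom1, the other myomesin, was at 129, 129 and 144 FPKM in Chow and at 109, 92.6 and 69.5 FPKM in HFpEF, with a log2 fold change of −0.59 (standard error 0.18, adjusted p = 0.15). The HFpEF libraries held the same order in both genes, with replicate 1 highest and replicate 3 lowest. Ttn, the gene for titin, was at 29.0 to 37.4 FPKM in Chow and at 16.6 to 28.5 FPKM in HFpEF. Its HFpEF maximum lay just under its Chow minimum, and the log2 fold change of −0.49 (standard error 0.22) had an adjusted p of 0.240. None of these 3 genes was called at an adjusted p under 0.05 without HFpEF replicate 3, where 0 were called by limma and Myom1 had an adjusted p of 0.0501. All 3 were below 0 there. With all 6 libraries, 2 of the 3, Myom1 and Myom2, were lower at an unadjusted p under 0.05, against 13.1% of all genes.

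The 16 Z-disc genes had the smallest median difference of the 5 role groups, with a log2 fold change of −0.44 (−0.22 without HFpEF replicate 3), and ranged from −0.80 to −0.19. Of the 16, 7 were lower at an unadjusted p under 0.05, against 13.1% of all genes. In 11, every HFpEF library lay below every Chow library, against 19.7% of all genes. Myoz2, calsarcin-1, which binds calcineurin at the Z-disc, was at 178, 176 and 176 FPKM in Chow and at 118, 133 and 67.0 FPKM in HFpEF. It had the largest fitted difference of the group, with a log2 fold change of −0.80 (standard error 0.26, adjusted p = 0.159), and lies on chromosome 3 from 123006206 to 123035015. Fhl2, a LIM-domain protein whose promoter is shown above, was at 733, 844 and 844 FPKM in Chow and at 506, 526 and 418 FPKM in HFpEF. The groups lay well apart, with a log2 fold change of −0.74 (standard error 0.17, adjusted p = 0.109). Actn2, the alpha-actinin that crosslinks thin filaments in the Z-disc, was at 430, 447 and 475 FPKM in Chow and at 344, 349 and 232 FPKM in HFpEF. Des, desmin, the intermediate filament that links neighbouring Z-discs, was at 438, 419 and 420 FPKM in Chow and at 346, 317 and 243 FPKM in HFpEF. Csrp3, the muscle LIM protein, was at 345, 360 and 357 FPKM in Chow and at 267, 299 and 200 FPKM in HFpEF. In these 3 genes HFpEF replicates 1 and 2 lay below Chow and replicate 3 lay lower still, with log2 fold changes of −0.57, −0.51 and −0.49. Ankrd23, an ankyrin-repeat protein of the titin complex and the member with the lowest level, was at 5.18, 5.09 and 5.61 FPKM in Chow and at 3.56, 3.94 and 3.74 FPKM in HFpEF. It was the only member with its lowest level in a library other than HFpEF replicate 3, and its log2 fold change of −0.49 (standard error 0.10, adjusted p = 0.106) was −0.49 without that library as well. Xirp2, an actin-binding Xin-repeat protein, was at 23.2, 25.9 and 27.4 FPKM in Chow and at 22.8, 20.2 and 16.9 FPKM in HFpEF, with a log2 fold change of −0.36.

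Tcap, telethonin, which caps the titin end in the Z-disc, was the most abundant gene of the group, at 1621.8, 1854.4 and 2141.4 FPKM in Chow and at 1407.2, 1697.0 and 1070.4 FPKM in HFpEF. The groups overlapped, with a log2 fold change of −0.45 (standard error 0.24, adjusted p = 0.301). For 4 further genes the groups did not overlap at an unadjusted p above 0.05. These were Ldb3, which encodes the PDZ-LIM protein cypher and was at 159 to 163 FPKM in Chow and 73.1 to 145 FPKM in HFpEF, Xirp1, the second Xin-repeat gene, at 34.2 to 35.9 and 18.4 to 31.7 FPKM, Pdlim5, another PDZ-LIM gene, at 53.9 to 56.7 and 37.2 to 50.6 FPKM, and Flnc. Flnc, filamin C, was at 29.4, 28.7 and 32.7 FPKM in Chow and at 27.6, 27.8 and 24.5 FPKM in HFpEF, the smallest fitted difference of the 34, with a log2 fold change of −0.19 (standard error 0.11, adjusted p = 0.328). In Nexn, Nebl, Cmya5 and Synpo2l the groups overlapped. Nexn, nexilin, was at 75.5 to 84.0 FPKM in Chow and 45.6 to 76.4 FPKM in HFpEF. Nebl, nebulette, was at 23.2 to 26.0 and 13.2 to 24.3 FPKM, and Cmya5, myospryn, at 61.3 to 66.1 and 29.6 to 61.8 FPKM. Synpo2l, a synaptopodin relative of the Z-disc, was at 28.4, 32.8 and 33.4 FPKM in Chow and at 36.4, 32.8 and 17.6 FPKM in HFpEF. Its highest and its lowest level were both in HFpEF, so that its log2 fold change of −0.19 (standard error 0.27, adjusted p = 0.693) turned to 0.13 without replicate 3. Without that library, 6 of the 16 genes fell at an adjusted p under 0.05, against 5.5% of all genes. These were Myoz2, Fhl2, Actn2, Des, Csrp3 and Ankrd23.

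**Figure D4:**
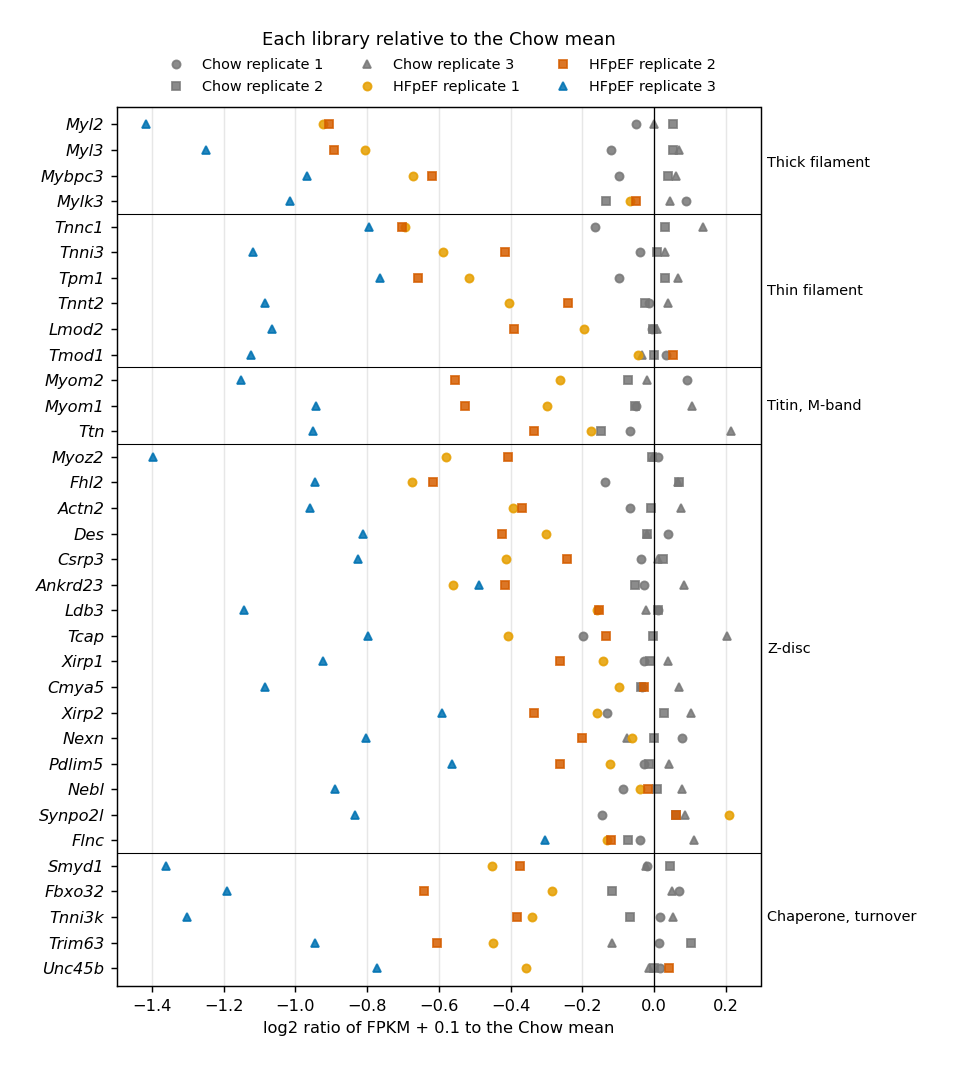
Log2 ratio of FPKM + 0.1 in each library to the Chow mean, for each of the 34 genes. HFpEF replicate 1 had a median of −0.32 over the genes, while replicate 2 had one of −0.37 and replicate 3 (blue triangles) one of −0.95, and the spread between genes within replicates 1 and 2 runs from Myl2 at the left to Synpo2l at the right.

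Genes for building and removing sarcomere proteins were lower together with the structural genes. The median log2 fold change of these 5 genes was −0.67 (−0.41 without HFpEF replicate 3). Of the 5, 4 were lower at an unadjusted p under 0.05, against 13.1% of all genes. In the same 4, every HFpEF library lay below every Chow library, against 19.7% of all genes. Smyd1, a muscle methyltransferase that acts with the myosin chaperones, was the most abundant, and lies on chromosome 6 from 71213940 to 71322233. It was at 119, 125 and 119 FPKM in Chow and at 88.7, 93.4 and 47.1 FPKM in HFpEF, with a log2 fold change of −0.73 (standard error 0.27, adjusted p = 0.183). Both ubiquitin ligases linked to muscle atrophy were lower rather than higher. Trim63, which encodes MuRF1, was at 75.3, 80.0 and 68.8 FPKM in Chow and at 54.7, 49.0 and 38.7 FPKM in HFpEF, with a log2 fold change of −0.67 (standard error 0.16, adjusted p = 0.115). Fbxo32, which encodes atrogin-1, was at 24.1, 21.2 and 23.8 FPKM in Chow and at 18.9, 14.7 and 10 FPKM in HFpEF, with a log2 fold change of −0.71 (standard error 0.23, adjusted p = 0.155). Tnni3k, a cardiac kinase that interacts with troponin I, was at 49.0, 46.3 and 50.3 FPKM in Chow and at 38.4, 37.2 and 19.6 FPKM in HFpEF. Its log2 fold change of −0.67 was −0.36 without HFpEF replicate 3, where it was still called (adjusted p = 0.0312), as were Smyd1 and Trim63. Unc45b, the chaperone that folds myosin heads, was at 53.3 to 54.4 FPKM in Chow and at 42.1, 55.4 and 31.5 FPKM in HFpEF, with overlap and a log2 fold change of −0.36.

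Cardiomyocyte genes outside the sarcomere were lower as well. Of 15 such genes, 14 were lower, with a median log2 fold change of −0.78. At an unadjusted p under 0.05, 9 were lower, against 13.1% of all genes. For 12, every HFpEF library lay below every Chow library, against 19.7% of all genes. Mb, myoglobin, was at 4119.6 to 4259.8 FPKM in Chow and at 1814.5 to 2798.5 FPKM in HFpEF. Fabp3, the fatty acid-binding protein of heart muscle, was at 2996.0 to 3692.0 and 1451.6 to 2056.5 FPKM, and Atp2a2, the calcium pump SERCA2, at 2368.4 to 2588.0 and 1289.3 to 2130.9 FPKM. The 1 gene that was higher was Kcnj3, a potassium channel gene expressed mainly in the atrium, named here after its values were seen. To ask which sarcomere genes were lower relative to these, all libraries were also rescaled to the geometric mean of the 15 genes, a choice made after the data were seen. This shifted the median of all genes to 0.59, and the median of the 34 genes became 0.09, with 13 below and 21 above 0. All 34 were still below the median of all genes. Myl2 was the only member lower at an unadjusted p under 0.05 on this scale, at a log2 fold change of −0.46. When HFpEF replicate 3 was also left out, 5 of 34 genes fell at an adjusted p under 0.05, against 0.858% of all genes. These were Myl2 (−0.60), Myl3 (−0.54), Tnnc1 (−0.38), Mybpc3 (−0.33) and Fhl2 (−0.33), log2 fold changes relative to the 15 genes. In the other direction 4 of 34 rose, against 19.0% of all genes, namely Synpo2l (0.45), Tmod1 (0.32), Nebl (0.28) and Cmya5 (0.25). Both HFpEF libraries left in this fit are those with atrial transcripts. Kcnj3, which is part of the 15-gene reference, was at 32.1 and 43 FPKM in them, against 12.6 to 16.7 in Chow. What this does to the relative fold changes was not tested.

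**Figure D5:**
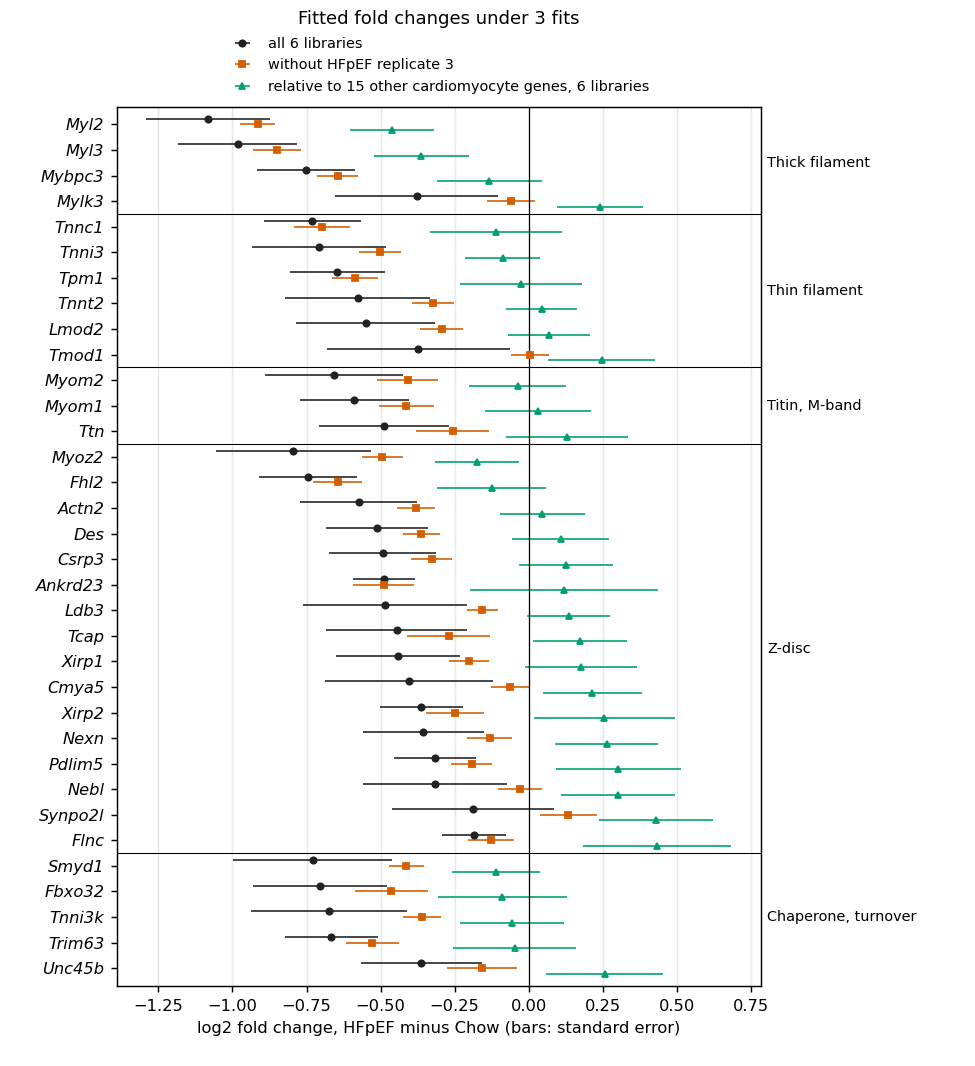
Fitted log2 fold change (HFpEF minus Chow, with standard error) of each gene in 3 fits, with all 6 libraries (black), without HFpEF replicate 3 (orange) and relative to 15 other cardiomyocyte genes (green). All 34 black points lie below 0, 32 orange points do, and the green points fall on both sides with Myl2 lowest at −0.46.

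A wider list held 65 further genes of the sarcomere and of related proteins, among them atrial, smooth muscle and non-muscle forms. Of these, 58 passed the filter on low values, 36 of them lower and 22 higher, with a median log2 fold change of −0.24. None was called at an adjusted p under 0.05 by limma (0 of 58). At an unadjusted p under 0.05, 10 of 58 were lower, against 13.1% of all genes, and 6 were higher, against 10.2%. Myh6, the alpha myosin heavy chain that predominates in the adult mouse ventricle, was at 3195.9, 2800.2 and 3372.7 FPKM in Chow and at 2493.0, 2638.6 and 1540.8 FPKM in HFpEF, without overlap. The fit gave a log2 fold change of −0.53 (standard error 0.27, adjusted p = 0.282). Myh7, the beta heavy chain, was at 23.1 to 30.0 FPKM in Chow and 21.9 to 35.2 FPKM in HFpEF, with overlap. Actc1, cardiac actin, was at 4457.9 to 5336.5 and 2445.1 to 3820.0 FPKM, and its log2 fold change was −0.65. Acta1, skeletal actin, was at 24.7 to 166 and 36.6 to 60.4 FPKM, and Ankrd1, a load-responsive titin partner, at 394 to 437 and 378 to 466 FPKM. Acta1 and Ankrd1, both known to go up in stressed hearts, thus overlapped between groups.

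The genes of this wider list that were lower at an unadjusted p under 0.05 included Lmod3, a leiomodin (−0.90), Myh7b, a slow-type heavy chain (−0.89), Cavin4, a caveolar protein of muscle (−0.83), and Trim54, which encodes MuRF3 (−0.73), all log2 fold changes. Myh7b was at 11.8, 14 and 14.2 FPKM in Chow and at 6.65, 6.86 and 7.93 FPKM in HFpEF, and here HFpEF replicate 3 was the highest HFpEF library. The genes that were higher included Tpm2, beta-tropomyosin, at 5.96, 7.53 and 9.52 FPKM in Chow and 36.7, 21.5 and 29.2 FPKM in HFpEF, with a log2 fold change of 1.90 (standard error 0.24, adjusted p = 0.0596). Pdlim3 (1.30), a PDZ-LIM protein, Actn1 (1.20), the non-muscle alpha-actinin, and Csrp1 (0.96), a LIM protein of smooth muscle, were higher as well. The smooth muscle myosin gene Myh11 was at 9.36, 10.4 and 12.3 FPKM in Chow and at 63.7, 6.99 and 30.4 FPKM in HFpEF. Tpm2, Pdlim3, Actn1 and Csrp1 each had their highest HFpEF levels in replicates 1 and 3, the libraries with more Myh11. The smooth muscle list was not uniform. Acta2 was like Myh11, at 422, 48.8 and 262 FPKM in HFpEF against 53.2 to 77.9 in Chow. Rgs5 was at 118, 109 and 147 FPKM in HFpEF against 143 to 165 in Chow. Kcnj8, named after its values were seen, was at 16.6, 17.1 and 19.4 FPKM against 23.4 to 26.3. The part of smooth muscle in these levels was not tested. Without HFpEF replicate 3, 7 of the 58 genes fell at an adjusted p under 0.05, against 5.5% of all genes. In that fit 1 gene, Tpm2, rose, against 2.85% of all genes.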

How the data were processed

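RNA of tissue that the paper describes as left ventricle, from 3 Chow and 3 HFpEF mice grouped by the sample labels, was analysed. HISAT2 alignment and featureCounts counting were done by the authors, who deposited FPKM; the submitters' processing notes name GRCm38. Gene symbols and exon lengths came from GENCODE M21. FPKM times exon length gave whole reads for 96.1% to 96.2% of values above 0 (relative tolerance 1e-06). Median-of-ratios factors were applied to FPKM, but ran only from 0.9986 to 1.0018, so the deposited FPKM were already close to this scale. Then 0.1 was added, and log2 values of the 14227 genes that reached 0.5 FPKM in 3 or more libraries were fitted. The fit used limma 3.58.1 (lmFit, eBayes with trend and robust) in R 4.3.3, with Benjamini-Hochberg adjustment over all of these genes. Fold changes on this scale understate those of low genes. The fit was tested on simulated data. Promoters came from RefSeq (GRCm38.p6), excluding 5 members not in that table and 1 whose start lay over 100 bases from any GENCODE start.

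Members, lists and tests were chosen with earlier results of these data known. Every member is named; library values are given for those with an unadjusted p under 0.05, the 8 largest fold changes and the most abundant of each role. Of the wider list, up to 8 with an unadjusted p under 0.05 and 5 preset genes are named, and of cell type lists up to 3 abundant genes. The skeletal and 15-gene lists share Ckm, and the atrial and wider lists share Myl7 and Myl4. Alternatives were other scalings, pseudocounts, filters, eBayes options, voom on recovered reads, a replicate block and leaving out libraries. Counting error only is covered by read numbers.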

Additional observations from a re-analysis of the deposited data

How the results depend on the processing

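Across 544 combinations of 34 members and 16 alternatives, without the pair chosen later, 522 kept direction and side of the threshold, 16 became called (all without HFpEF replicate 3) and 6 reversed. As 0 members were called as reported, keeping the side means staying uncalled. The deposited FPKM, other pseudocounts and other filters could hardly change members, whose median stayed at −0.53. The reversals were Tnni3 (0.0535) and Tcap (0.38) under quantile normalization, Tmod1 (0.0039) and Synpo2l (0.13) without HFpEF replicate 3, and Flnc (0.0683) and Synpo2l (0.065) with libraries scaled to the same sum over nuclear genes. Among other named genes, Myh6 (0.22), Actc1 (0.30), Mb (0.14), Atp2a2 (0.22), Pecam1 (0.10) and Rgs5 (0.0138) reversed under quantile normalization, Pecam1 (0.19) with the nuclear sum, and Myh7 (−0.0352) without HFpEF replicate 3. With each library left out in turn, fold changes ran from −0.585 to 0.0039 for Tmod1, −0.387 to 0.134 for Synpo2l, −0.0352 to 0.309 for Myh7, −0.39 to 0.595 for Casq1, −0.143 to 1.12 for Hbb-bs, −0.269 to 1.09 for Hba-a1 and −0.368 to 1.05 for Hba-a2. The cause was not tested.

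The number of members called lower at an adjusted p under 0.05 ran from 0 to 16 when 1 library was left out, the 16 without HFpEF replicate 3. At an unadjusted p under 0.05, the 19 lower members became 5, with 1 higher, under quantile normalization, 9 with the nuclear sum and 1 relative to the 15 cardiomyocyte genes, and ran from 8 to 24 with 1 library left out. Over all 14227 genes, lower and higher calls at this threshold numbered 1869 and 1454 as reported, 1672 and 1177 under quantile normalization, where the members' share was thus near that of all genes, 604 and 3663 with the nuclear sum, and 46 and 3436 relative to the 15 genes. With 1 library left out, lower calls over all genes ran from 1015 to 2132 and higher calls from 897 to 1568. The nuclear sum shifted the median of all genes to 0.24 and the 15 genes to 0.59, and the members' median less that of all genes was −0.51 with the nuclear sum, −0.50 with the 15 genes and −0.17 under quantile normalization, against −0.52 as reported.

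With 1 library left out, the median log2 fold change ran from −0.66 to −0.34 for all members, −0.93 to −0.75 for the thick filament, −0.72 to −0.41 for the thin filament, −0.74 to −0.41 for titin and the M-band, −0.54 to −0.22 for the Z-disc, −0.84 to −0.41 for chaperones and turnover and −0.34 to −0.11 for the wider list. Relative to the 15 genes, these medians were 0.0889, −0.248, 0.00899, 0.0307, 0.175, −0.0561 and 0.377. Under quantile normalization the thick filament was at −0.21 and the thin filament at −0.0791. With the nuclear sum the thick filament was at −0.61 and the wider list at 0.0142. With HFpEF replicate 3 alone against Chow, which assumes that the lone library varies like Chow, the medians were −0.95, −1.13, −1.07, −0.95, −0.83, −1.19 and −0.52, and 33 members were called lower at an adjusted p and 34 at an unadjusted p under 0.05. This comparison called far more of all 14227 genes as well, with 2931 lower and 2100 higher at an adjusted p and 3632 and 2860 at an unadjusted p.

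For the 58 genes of the wider list, that comparison called 27 lower and 11 higher (28 and 12 unadjusted), against the same calls over all genes. With 1 library left out, adjusted calls ran from 0 to 7 lower and 0 to 3 higher, and unadjusted ones from 5 to 16 and from 2 to 8. There was 1 gene called higher (adjusted) with the nuclear sum and 1 relative to the 15 genes. At an unadjusted p there were 6 lower under quantile normalization, 4 lower and 10 higher with the nuclear sum, and 0 lower and 13 higher relative to the 15 genes.

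Same-numbered libraries did not deviate together (correlations −0.04, −0.07 and −0.06), and the labels state no pairing of mice by number. With 3 libraries a group, this check cannot exclude a pairing. With the replicate number as a block, 0 members were called at an adjusted p, and 16 were lower at an unadjusted p under 0.05. Of the 58 genes of the wider list, 6 were lower at an unadjusted p. Over all 14227 genes, that fit called 1699 lower at an unadjusted p, so the wider list was near the share of all genes. At an adjusted p it called 0 of all genes lower and 2 higher. With 3 mice a group and a larger spread in HFpEF, small differences could not be resolved, although members had at least 133 reads in every library. The 15-gene scaling and the comparison with HFpEF replicate 3 alone were chosen after the data were seen.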

Other observations

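Across the 34 sarcomere and Z-disc genes, those with higher levels in Chow hearts had the more negative log2 fold changes. Spearman's rho between the fold change and the Chow FPKM was −0.61, and between the fold change and exon length 0.51, across genes of the same 6 libraries. Over all genes tested, these were −0.40 and 0.12. Without HFpEF replicate 3 they were −0.58 and 0.51 for the members. The 9 members with at least 500 FPKM in Chow, among them Myl2, Myl3, Tcap and Tnni3, had a median log2 fold change of −0.73, and the 25 below that level one of −0.49. The 43 abundant nuclear genes that are not members had a median of −0.75 at the same level. At this Chow level, sarcomere genes were thus about as much lower as the other genes. Without HFpEF replicate 3, however, the 9 abundant members had a median of −0.65 and the other 43 abundant genes one of −0.48. Both sets were picked by Chow level alone, so genes abundant only in HFpEF could not enter. The Chow level is also the base of the fold change, which favours negative values in such sets. The 43 genes include other cardiomyocyte genes such as Mb, Fabp3 and Atp2a2. These are descriptions, since FPKM within a library share a total and genes are not independent replicates.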
